A study of Mus musculus with 4 samples.

Results

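The axon guidance genes described here are the ligands and receptors by which growing axons and migrating cells read their surroundings. They were chosen by symbol, as every gene of the semaphorin (Sema3 to Sema7), plexin, Eph, ephrin, netrin, Unc5, Robo and Slit families in the count table. The rule took 69 of 24453 gene symbols. Of these 69, 66 belong to the families by annotation, as 35 ligands and 31 receptors. The other 3 (Unc50, Unc5cl and the antisense transcript Plxna4os1) match by their letters alone.

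Semaphorins act through plexins, and most secreted semaphorins of the Sema3 class also need a neuropilin. Ephrins and Eph receptors are both bound to the cell surface, and each can signal into the cell that carries it. Ephrin-A ligands are held by a lipid anchor and ephrin-B ligands span the membrane. Netrins attract through Dcc or neogenin and repel through Unc5 receptors, and Slits act through Robo receptors. Outside the nervous system the same proteins guide blood vessels and nerves and keep neighbouring cell populations apart, and the skin receives nerve and vessel branches that read such cues.

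RNA-seq was run on epidermal cells of newborn mice (postnatal day 0), sorted from back skin as EpCAM-positive, Sca1-positive cells with high α6-integrin, a gate for progenitors of the interfollicular epidermis. The mutant group, I53A, holds 2 libraries of genotype Ring1a-/- Ring1b-/I53A, and the other group, CTL, holds 2 libraries labelled Control. Ring1a (symbol Ring1) and Ring1b (symbol Rnf2) are the ubiquitin ligase subunits of Polycomb repressive complex 1 (PRC1), and the I53A substitution impairs the ligase activity of Ring1b. The question is which genes differ when this activity is impaired, here for genes of axon guidance. The I53A libraries lack Ring1a and carry the Ring1b substitution over a null allele, and the effects of these alleles cannot be told apart. The alleles of the Control mice, the driver of any conditional deletion and whether each library is a separate mouse are points not given in the sources used here, so p-values measure only the spread between these libraries. Where a library is left out below, its group keeps a single library. The p-values and calls of that fit then rest on the spread within the other group alone.

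The libraries held 15966412 and 21543385 reads in genes for I53A and 17010432 and 15505018 for CTL. A gene with no read in a library could hold up to 0.132 to 0.199 CPM there (CPM, reads scaled to a common library size with TMM; the value of 3 counts, counting error only). Ring1, the deleted gene, had 40 and 66 reads in I53A libraries and 406 and 502 in CTL libraries (log2 fold change -3.38 ± 0.31 SE, edgeR adjusted p = 0.000172). Rnf2, which carries the substitution over a null allele, had 58.8 and 59.0 CPM in I53A and 58.5 and 45.8 CPM in CTL (adjusted p = 0.681). A substitution need not change its level, and counts per gene do not separate reads of the null allele from those of the other. Of the 3 genes of the sort, Itga6 and Ly6a did not pass the test, and Epcam had 132 and 158 CPM in I53A and 107 and 85.8 CPM in CTL (adjusted p = 0.0635).

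Markers of other skin cells were present in both groups. Dermal fibroblast markers summed to 2164 and 1932 CPM in I53A and 1413 and 1488 CPM in CTL, and 2 of 9 tested (Dcn and Thy1) were higher. Schwann cell and nerve markers summed to 219 and 192 CPM in I53A and 147 and 132 CPM in CTL, with Mbp and Ncam1 higher of 7 tested. Both sums lay above CTL in each I53A library, and so did the sums for hair follicle, Merkel cell and pericyte markers. Hair follicle markers summed to 1043 and 1132 CPM in I53A and 678 and 705 CPM in CTL, where Lhx2, Krt79 and Cux1 were higher and Tchh was lower of 8 tested. Pericyte and smooth muscle markers summed to 211 and 159 CPM in I53A and 85.7 and 80.7 CPM in CTL (Cspg4 higher, of 5 tested). Merkel cell markers summed to 26.9 and 24.0 CPM in I53A and 17.7 and 9.47 CPM in CTL (Piezo2 higher, of 4 tested). Single genes carried several of these sums. Without Ncam1 the Schwann cell and nerve sums overlapped (117 and 108 CPM in I53A, 112 and 99.9 CPM in CTL), and without Piezo2 so did the Merkel cell sums (3.24 and 5.59 CPM in I53A, 9.28 and 2.52 CPM in CTL). Without Cspg4 the pericyte sums were 18.9 and 21.7 CPM in I53A and 16.9 and 12 CPM in CTL. Without their called genes the fibroblast sums (1594 and 1332 CPM in I53A, 1006 and 1156 CPM in CTL) and hair follicle sums (591 and 644 CPM in I53A, 401 and 376 CPM in CTL) still lay above CTL. The Schwann cell and nerve sums without Mbp and Ncam1 were 85.6 and 72.2 CPM in I53A and 93.3 and 87.7 CPM in CTL. Both I53A values then lay below CTL. Endothelial sums overlapped, at 24.8 and 34.7 CPM in I53A and 14.2 and 36.1 CPM in CTL, as did melanocyte sums (18.8 and 22.3 CPM in I53A, 17.4 and 19.6 CPM in CTL) and immune sums (196 and 421 CPM in I53A, 194 and 373 CPM in CTL), where Cd3g had no read in any library. No endothelial, melanocyte, immune or suprabasal marker passed the test, of 7, 4, 5 and 6 tested. Basal epidermal markers summed to 23831 and 21073 CPM in I53A and 30384 and 33938 CPM in CTL, and Krt15 fell, of 9 tested. Across these lists 11 of 64 tested markers passed the test (9 higher, 2 lower), where 6.71% of all tested genes passed. The part of other cell types in the values below was not tested, and in bulk RNA fewer cells of a type and less RNA per cell cannot be told apart.

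PRC1 is known to bind CpG-rich promoters, so the CpG content of the guidance promoters is shown first. RefSeq promoters (GRCm38.p6, 250 bases before to 50 after a gene's start) were matched by symbol to 59 of the 69 genes. For some genes, among them Robo1, Robo2 and Sema3a, that promoter lies far from the start of the annotated gene span used below. The motif counted was CG, which reads the same on both strands and cannot overlap itself. The 5 promoters below, with every CG in capitals and 5′ to 3′ on the gene's strand, are those of a receptor and a ligand that rose strongly in I53A (Ephb2 and Sema5b), the risen ligand with the fewest CG (Sema3e), a receptor that fell (Epha4), and a neighbour of Ephb2 with no reads (Epha8).
Ephb2, chr4:136835963-136836262, minus strand: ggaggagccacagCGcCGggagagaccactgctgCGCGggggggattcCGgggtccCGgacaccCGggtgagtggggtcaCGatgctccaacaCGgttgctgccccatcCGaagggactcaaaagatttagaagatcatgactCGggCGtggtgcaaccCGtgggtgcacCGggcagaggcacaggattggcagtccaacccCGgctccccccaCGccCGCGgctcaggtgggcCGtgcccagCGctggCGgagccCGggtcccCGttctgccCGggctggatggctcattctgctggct
Sema5b, chr16:35541112-35541411, plus strand: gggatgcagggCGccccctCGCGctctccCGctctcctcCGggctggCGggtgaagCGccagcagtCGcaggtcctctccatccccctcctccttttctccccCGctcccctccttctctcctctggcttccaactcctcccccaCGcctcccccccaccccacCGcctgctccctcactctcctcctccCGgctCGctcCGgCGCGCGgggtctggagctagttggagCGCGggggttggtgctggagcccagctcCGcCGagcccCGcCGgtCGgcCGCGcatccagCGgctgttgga
Sema3e, chr5:14025026-14025325, plus strand: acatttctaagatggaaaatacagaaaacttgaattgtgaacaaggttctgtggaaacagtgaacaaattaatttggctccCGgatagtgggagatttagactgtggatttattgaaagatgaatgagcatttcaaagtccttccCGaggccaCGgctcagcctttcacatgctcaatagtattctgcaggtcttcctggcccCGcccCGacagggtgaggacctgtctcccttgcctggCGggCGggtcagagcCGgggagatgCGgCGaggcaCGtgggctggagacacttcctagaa
Epha4, chr1:77515039-77515338, minus strand: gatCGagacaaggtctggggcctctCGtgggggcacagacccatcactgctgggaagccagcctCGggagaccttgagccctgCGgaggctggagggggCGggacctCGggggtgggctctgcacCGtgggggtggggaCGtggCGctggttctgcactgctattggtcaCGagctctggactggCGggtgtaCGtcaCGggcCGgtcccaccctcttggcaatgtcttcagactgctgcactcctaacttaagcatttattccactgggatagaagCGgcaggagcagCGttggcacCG
Epha8, chr4:136956767-136957066, minus strand: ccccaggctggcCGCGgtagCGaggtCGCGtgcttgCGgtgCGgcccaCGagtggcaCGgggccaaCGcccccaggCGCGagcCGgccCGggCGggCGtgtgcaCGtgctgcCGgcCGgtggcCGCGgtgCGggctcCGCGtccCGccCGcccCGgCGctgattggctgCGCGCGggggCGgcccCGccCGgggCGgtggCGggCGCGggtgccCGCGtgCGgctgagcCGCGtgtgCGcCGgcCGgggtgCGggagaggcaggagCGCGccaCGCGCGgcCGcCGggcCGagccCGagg

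The Ephb2 promoter held 24 CG, and 20% of all 27025 RefSeq promoters held at least as many. Sema5b held 27 CG (15.4% of all promoters held at least as many), Epha4 held 17 (31.9%) and Sema3e held 11 (41.9%). Epha8 held 56 CG, the most of any matched guidance promoter, and only 0.204% of all promoters held as many or more. Guidance promoters as a whole were CG-rich, with a median of 22 CG, against 20 for promoters of all tested genes and 7 for all promoters. Of the guidance promoters 81.4% held at least 10 CG, against 78.7% of tested genes' promoters and 43.9% of all promoters. Among the guidance genes, those that rose did not stand apart by this count. Their 6 matched promoters had a median of 25.5 CG (range 11 to 36), the 3 of genes that fell had 26 (range 17 to 34), and the 40 of genes that did not pass the test had 23. Over all genes, the 602 matched promoters of those called higher had a median of 22 CG. The 122 of those called lower had 13.

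**Figure D1:**
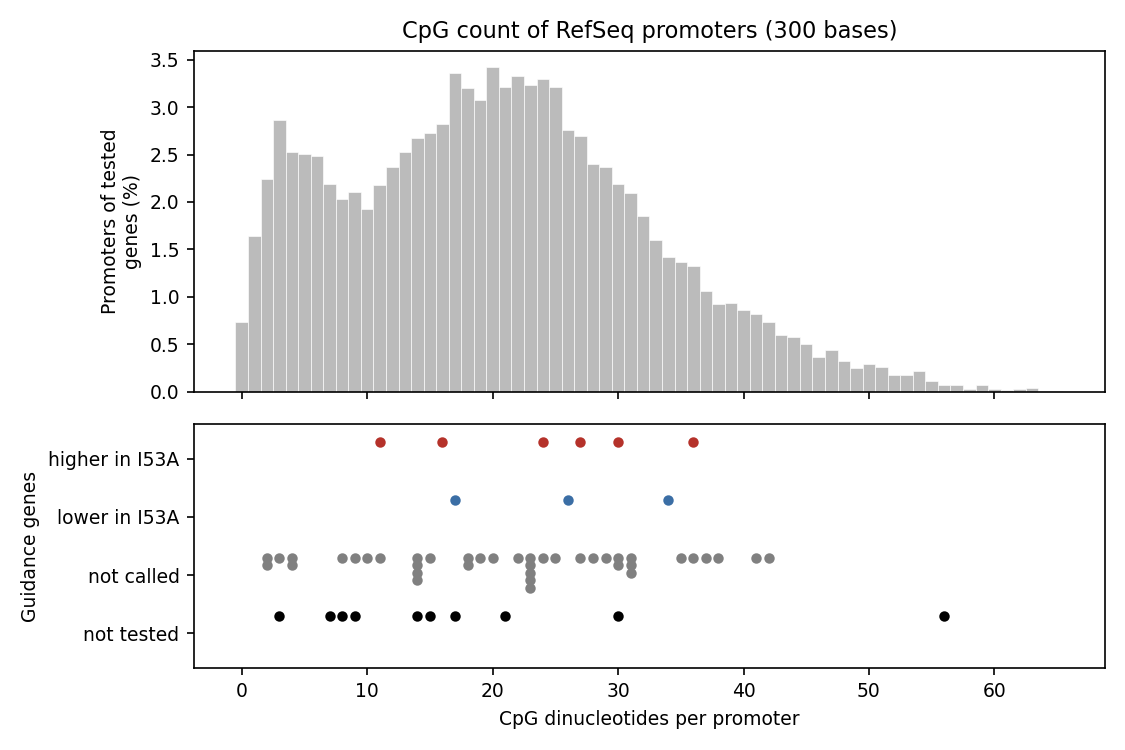
CpG dinucleotides per RefSeq promoter of 300 bases (x axis). The upper panel gives the share of tested genes' promoters at each count in percent, and the lower panel has a point for each guidance gene by its result in I53A against CTL. The genes higher in I53A lie between 11 and 36, those lower in I53A between 17 and 34, and the untested gene at 56 is Epha8.

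Of the 69 genes, 57 had enough reads to be tested, and 12 did not. Of the 12, 11 had at most 12 reads in any library, the exception being Sema4f, and Epha6 and Epha8 had none at all. In the tested set 10 genes passed the test (edgeR quasi-likelihood, Benjamini-Hochberg adjusted p under 0.05 over all 14550 tested genes). Sema5b, Efnb3, Ephb2, Ntn3, Sema4g, Sema3e and Unc5b rose in I53A, and Epha4, Sema4b and Ephb6 fell. That is 17.5% of the tested guidance genes, beside 6.71% of all tested genes, with 12.3% higher beside 5.68% and 5.26% lower beside 1.04%. Counted only over genes with at least 10 reads in each CTL library, a choice that does not use I53A values, the share was 18.2% (10 of 55) beside 6.31% of all such genes, with the same 7 higher and 3 lower (5.19% and 1.12% of all such genes). With GC content and length offsets 14 guidance genes passed, 8 higher and 6 lower, where 8.54% of all tested genes passed (6.83% higher and 1.70% lower). The share of higher calls among the guidance genes was then 57.1%, in place of 70%. DESeq2 called 15 guidance genes and limma-voom 10, beside 8.59% and 5.74% of all tested genes, and the 10 above were among them each time. With a CTL library left out the count fell to 5, the same 5 each time (Efnb3, Ephb2, Sema4g, Sema5b and Unc5b), while all tested genes gave 297 calls (2.04%) without CTL replicate 1 and 326 (2.24%) without CTL replicate 2, in place of 977. Without I53A replicate 1 the count was 17, and without I53A replicate 2 it was 15, with 1489 (10.2%) and 1520 (10.4%) of all tested genes.

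The median log2 fold change of the tested guidance genes was 0.09, beside -0.01 over all tested genes, and single genes ran from -0.91 to 3.52. In 34 of the 57 (59.6%) the I53A and CTL values did not overlap, 21 with I53A above and 13 with I53A below, where 47.9% of all tested genes did not overlap (24.4% above and 23.5% below). By role, 6 of 32 tested ligands passed (5 higher, 1 lower), and 4 of 24 tested receptors (2 higher, 2 lower). These are 18.8% of ligands and 16.7% of receptors, beside 6.71% of all tested genes (5.68% higher and 1.04% lower). The directions varied with the method. DESeq2 gave 7 ligands higher and 4 lower, with 2 receptors each way, and the offsets gave 5 ligands higher and 4 lower, with 3 receptors higher and 2 lower. Summed over all 69 genes, the level was 4587 and 4091 CPM in I53A and 4291 and 4430 CPM in CTL.

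**Figure D2:**
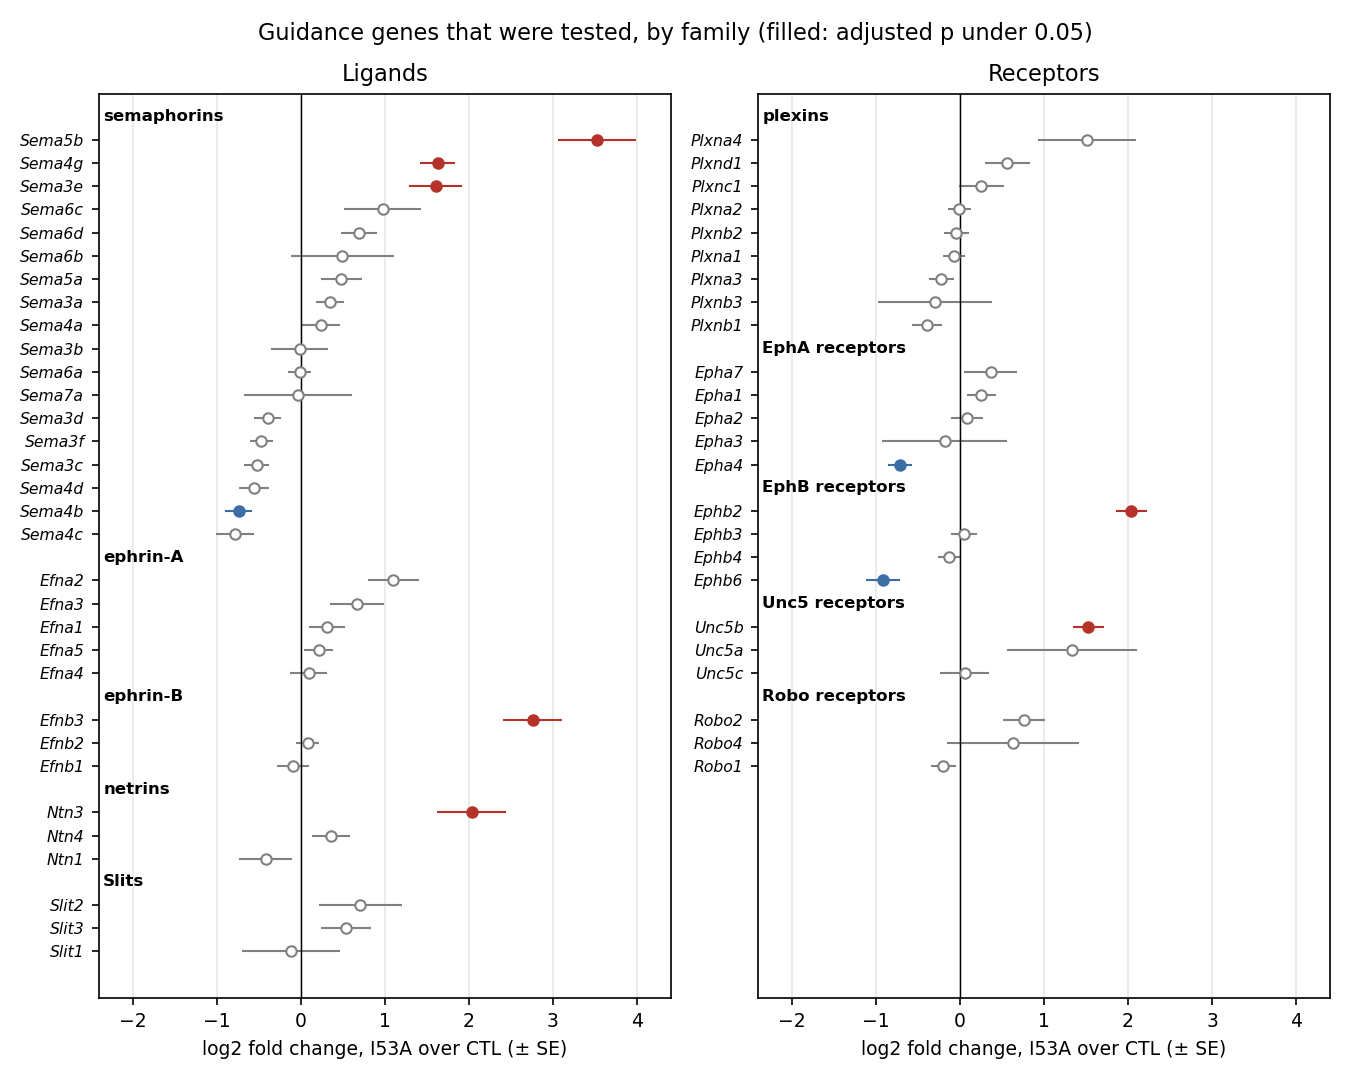
Log2 fold change, I53A over CTL (x axis), with its SE as a bar, for each tested gene of the ligand (left) and receptor (right) families. Filled points passed the test and open points did not. Sema5b lies farthest right at 3.52 and Ephb6 farthest left at -0.91, and the plexins and Robo receptors hold no filled point.

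**Figure D3:**
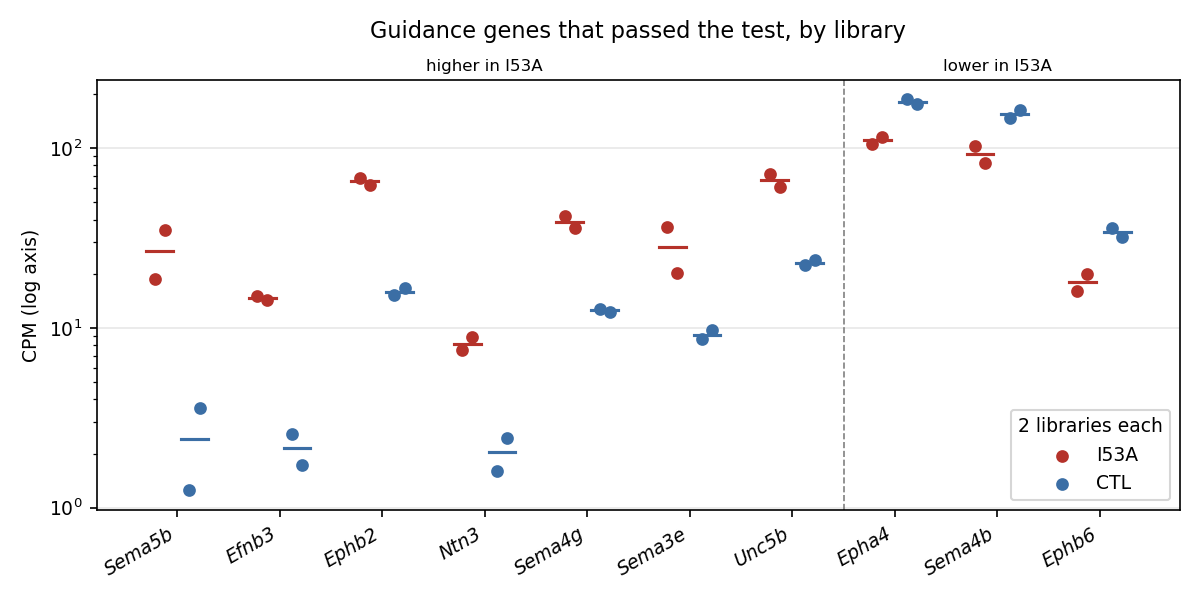
CPM on a log axis in each of the 2 I53A (left of each pair) and 2 CTL libraries for the 10 guidance genes that passed the test. Bars are group means. In none of the 10 do the I53A and CTL points overlap.

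Among the semaphorins, the largest ligand family, 3 genes rose in I53A and 1 fell, of 18 tested (16.7% and 5.56%). Of all tested genes 5.68% rose and 1.04% fell. The balance of directions varied with the method. For this family limma-voom gave the same counts, DESeq2 gave 4 higher and 4 lower, and GC content and length offsets gave 3 higher and 4 lower. Sema5b, a membrane-bound semaphorin that repels retinal neurites in the mouse, had 18.6 and 35.2 CPM in I53A and 1.25 and 3.58 CPM in CTL. Both I53A libraries lay far above both CTL libraries, and the spread within each group was wide for its level. Sema5b (chromosome 16, 35541145 to 35664732, plus strand, GRCm38) averaged 26.9 ± 11.7 CPM in I53A and 2.41 ± 1.65 CPM in CTL (SD, n = 2 each), 11.5-fold higher (log2 fold change 3.52 ± 0.46 SE, adjusted p = 0.00136, edgeR). Its log2 fold change moved to 2.92 without CTL replicate 1 (adjusted p = 0.0321) and 4.43 without CTL replicate 2 (adjusted p = 0.0091), and stayed past the threshold both times. In reads it had 293 and 799 in I53A and 21 and 54 in CTL, so the gene whose promoter is printed above was low but present in CTL.

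Sema4g, a transmembrane semaphorin, had 41.8 and 35.8 CPM in I53A and 12.7 and 12.3 CPM in CTL. The libraries of each group lay close together and the groups were well apart. The 3.10-fold rise of Sema4g (chromosome 19, 44989101 to 45003397, plus strand; log2 fold change 1.63 ± 0.21 SE, edgeR adjusted p = 0.0012) was called with any 1 library left out. Sema3e, a secreted semaphorin that acts on vessels and axons through plexin-D1 without needing a neuropilin, had 36.2 and 20.1 CPM in I53A and 8.63 and 9.67 CPM in CTL. Here the I53A libraries differed more from each other than the CTL libraries did, and the lower I53A value was still above both CTL values. Sema3e (chromosome 5, 14025276 to 14256689, plus strand) rose 3.04-fold (log2 fold change 1.61 ± 0.31 SE, edgeR adjusted p = 0.0116), and its adjusted p was 0.149 without CTL replicate 1 and 0.102 without CTL replicate 2. Its neighbours on chromosome 5, Sema3a at 423 kb and Sema3d at 1.44 Mb, did not pass the test. Sema3a had 60.4 and 56.2 CPM in I53A and 48.7 and 42.9 CPM in CTL (adjusted p = 0.298), and Sema3d 62.5 and 57.5 CPM in I53A and 72.5 and 85.1 CPM in CTL (adjusted p = 0.213). The risen gene thus lies beside 2 related genes whose values leaned in opposite directions and did not pass.

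Sema4b, a transmembrane semaphorin, was the semaphorin that fell. It had 103 and 82.6 CPM in I53A and 148 and 162 CPM in CTL. Every I53A value was below every CTL value. Sema4b (chromosome 7, 80186841 to 80226527, plus strand) was 1.67-fold lower (log2 fold change -0.74 ± 0.16 SE, edgeR adjusted p = 0.0186), and its adjusted p was 0.146 without CTL replicate 1 and 0.245 without CTL replicate 2. Sema3f, which signals through neuropilin-2 and had the highest level per kilobase of the semaphorins over the 4 libraries (24.4 CPM per kb in I53A, where Sema5a had 25.1, and 33.8 in CTL), had 126 and 128 CPM in I53A and 173 and 178 CPM in CTL. Its groups did not overlap, and its adjusted p of 0.0723 in edgeR was 0.0494 in DESeq2, 0.0465 without I53A replicate 2 and 0.0107 with GC content and length offsets, but 0.06 without I53A replicate 1, 0.39 without CTL replicate 1 and 0.472 without CTL replicate 2. Of 14 alternatives, 10 did not call Sema3f.

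Several further semaphorins, named here after their values were seen, lay near the threshold. Sema3c had 99.3 and 89.2 CPM in I53A and 127 and 144 CPM in CTL (adjusted p = 0.068). Sema4c had 21.3 and 16.7 CPM in I53A and 37.2 and 27.7 CPM in CTL (adjusted p = 0.0749), and Sema4d had 52.4 and 53.5 CPM in I53A and 66.1 and 89.9 CPM in CTL (adjusted p = 0.108). DESeq2 called Sema3c and Sema4c, and the fit with GC content and length offsets called Sema4c and Sema4d. Of the 18 tested semaphorins, those whose I53A values lay below CTL were Sema3c, Sema3d, Sema3f, Sema4b, Sema4c and Sema4d, and 6 others (Sema3a, Sema3e, Sema4g, Sema5b, Sema6c and Sema6d) lay above. That is 33.3% each way, beside 23.5% below and 24.4% above among all tested genes. Sema6d had 62.3 and 54.4 CPM in I53A and 43.5 and 28.3 CPM in CTL (adjusted p = 0.0929). Sema5a, the closest relative of Sema5b, had 612 and 326 CPM in I53A and 324 and 346 CPM in CTL (adjusted p = 0.331). Its groups overlapped, with I53A replicate 1 alone high, and its fitted log2 change ran from -0.03 to 0.87 over the alternatives. Sema4f was too low to test, with 2 and 29 reads in I53A and 2 and 1 in CTL. Its ratio of pooled reads, scaled for depth, was 8.58 (95% exact interval 2.68 to 43.8, counting error only), and nearly all its reads came from I53A replicate 2. The remaining semaphorins (Sema3b, Sema4a, Sema6a, Sema6b, Sema6c and Sema7a) had adjusted p-values of 0.291 to 0.992, and Sema3g had at most 4 reads in a library. Summed over the family the level was 1551 and 1213 CPM in I53A and 1301 and 1389 CPM in CTL, which overlap.

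Among the ephrins, Efnb3 rose and no other member passed the test. Efnb3, a transmembrane ephrin known in the mouse as a midline repellent for corticospinal axons that carry EphA4, had 15.0 and 14.4 CPM in I53A and 2.56 and 1.72 CPM in CTL. The 2 I53A libraries nearly coincided and both were far above CTL. Efnb3 (chromosome 11, 69554092 to 69560205, minus strand) averaged 14.7 ± 0.457 CPM in I53A and 2.14 ± 0.591 CPM in CTL (SD, n = 2 each), 6.77-fold higher (log2 fold change 2.76 ± 0.35 SE, edgeR adjusted p = 0.00124), and was called with any 1 library left out. The other ephrin-B genes were much higher per kilobase and overlapped between groups. Efnb2, a ligand of vessel and epithelial boundaries and the highest ephrin-B per kilobase (28.6 CPM per kb in I53A and 27.0 in CTL), had 206 and 186 CPM in I53A and 192 and 179 CPM in CTL (adjusted p = 0.828). Efnb1 had 67.3 and 49.6 CPM in I53A and 56.7 and 67.9 CPM in CTL (adjusted p = 0.864). The risen Efnb3, at 4.61 CPM per kb in I53A and 0.672 in CTL, stayed the lowest ephrin-B in both groups.

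None of the 5 ephrin-A genes passed the edgeR test, 1 had an unadjusted p under 0.05, DESeq2 called 1 and limma-voom 0. All 5 fitted changes were above 0, with a median log2 fold change of 0.31. Efna5, the highest per kilobase (34.2 CPM per kb in I53A and 29.4 in CTL), had 161 and 115 CPM in I53A and 118 and 119 CPM in CTL (adjusted p = 0.6), and its fitted change was -0.04 without I53A replicate 1. Efna2, named after its values were seen, had 18.3 and 32.2 CPM in I53A and 13.6 and 10.1 CPM in CTL. Its groups did not overlap (log2 fold change 1.10 ± 0.30 SE, edgeR adjusted p = 0.0621), and its fitted log2 change ran from 0.62 to 1.44 over the alternatives. The ephrin-A genes Efna1, Efna3 and Efna4 lie in a row on chromosome 3, with gaps of 32.8 kb and 10.4 kb, and their adjusted p-values ran from 0.31 to 0.888.

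Of the netrins, Ntn3 rose. Ntn3, a secreted netrin able to bind Unc5 receptors, had 7.5 and 8.85 CPM in I53A and 1.61 and 2.45 CPM in CTL. The groups did not overlap, and all 4 values were low, at 118 and 201 reads in I53A and 27 and 37 in CTL. Ntn3 (chromosome 17, 24203848 to 24209531, minus strand) rose 4.09-fold (log2 fold change 2.03 ± 0.41 SE, edgeR adjusted p = 0.0139), and its adjusted p was 0.183 without CTL replicate 1 and 0.0819 without CTL replicate 2. Ntn3 shares 89 bases of exon on the same strand (1.74% of its exons) with Tbc1d24, which had 384 and 564 reads in I53A and 178 and 203 in CTL, and 139 bases on the opposite strand with BC028777, so reads of these genes are uncertain where they overlap. It was the only one of the 10 called guidance genes with such an exon overlap in the annotation. Ntn4, a netrin of basement membranes and the highest netrin per kilobase (5.98 CPM per kb in I53A and 4.62 in CTL), had 25.2 and 19.5 CPM in I53A and 17.4 and 17.2 CPM in CTL (adjusted p = 0.46). Ntn1, the classical axon attractant, had 6.10 and 6.82 CPM in I53A and 7.55 and 9.87 CPM in CTL (adjusted p = 0.568). Ntn4 thus leaned up and Ntn1 down without passing, and Ntn5 had 0 and 2 reads in I53A and none in CTL.

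The Slits had the lowest summed level per kilobase of the ligand families (2.54 and 2.05 CPM per kb in I53A and 1.48 and 1.82 in CTL), and none of the 3 passed, with 0 at an unadjusted p under 0.05 in edgeR and 0 called by DESeq2 or limma-voom. Slit3, the highest of them per kilobase (1.93 CPM per kb in I53A and 1.32 in CTL), had 13.5 and 9.95 CPM in I53A and 7.32 and 8.67 CPM in CTL (log2 fold change 0.54 ± 0.30 SE, adjusted p = 0.396). Its groups did not overlap, while those of Slit1 and Slit2 did.

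Turning to the receptors, no plexin passed the test, of 9 tested. In edgeR 1 (Plxna4) had an unadjusted p under 0.05, and DESeq2 and limma-voom called 0. Plxna1, a receptor for semaphorins of several classes and the highest plexin per kilobase (44.1 CPM per kb in I53A and 46.2 in CTL), had 405 and 394 CPM in I53A and 411 and 426 CPM in CTL. Both I53A values lay just below CTL (log2 fold change -0.07 ± 0.13 SE, adjusted p = 0.86). Summed plexin levels were 1368 and 1351 CPM in I53A and 1466 and 1488 CPM in CTL, a ratio of 0.921 ± 0.0127 (SD) with both I53A libraries below CTL. Most of the difference between the group means (1359 CPM in I53A and 1477 CPM in CTL) lay in Plxnb1 alone (means of 301 and 396 CPM). The I53A and CTL values of 5 of the 9 did not overlap (2 above, 3 below), 55.6% beside 47.9% of all tested genes. Plxnd1, the receptor for Sema3e, had 25.9 and 47.6 CPM in I53A and 25.5 and 24.8 CPM in CTL (adjusted p = 0.305). Only I53A replicate 2 was clearly above CTL, and the fitted log2 change of Plxnd1 ran from 0.04 to 0.93 over the alternatives. Plxna4 was low, at 4.70 and 2.42 CPM in I53A and 0.952 and 1.46 CPM in CTL (adjusted p = 0.187, log2 fold change 1.03 to 1.97 over the alternatives). Plxnb1 had 358 and 245 CPM in I53A and 390 and 403 CPM in CTL (adjusted p = 0.27, log2 fold change -0.69 to -0.15 over the alternatives). Plxnd1, Plxna4 and Plxnb1 were chosen after their values were seen, and the adjusted p-values of the 5 plexins not named here ran from 0.519 to 0.989.

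Among the Eph receptors, Ephb2 rose, and Epha4 and Ephb6 fell. Ephb2, a receptor tyrosine kinase for ephrin-B ligands that positions cells along the intestinal crypt, had 68.6 and 62.2 CPM in I53A and 15.2 and 16.7 CPM in CTL. The libraries of each group lay close together, and the groups were far apart. Ephb2 (chromosome 4, 136647539 to 136835988, minus strand) averaged 65.4 ± 4.5 CPM in I53A and 15.9 ± 1.07 CPM in CTL (SD, n = 2 each), 4.11-fold higher (log2 fold change 2.04 ± 0.18 SE, edgeR adjusted p = 0.000172), and was called with any 1 library left out. It had the lowest adjusted p of the guidance genes. Its neighbour Epha8, 93.4 kb away and with the CG-rich promoter printed above, had no read in any of the 4 libraries.

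Epha4, a receptor that binds ephrins of both classes, had 105 and 116 CPM in I53A and 186 and 175 CPM in CTL. Over the 4 libraries it was the EphA receptor with the highest level per kilobase (13.7 CPM per kb in I53A and 22.5 in CTL). The groups were separate, with little spread in either. Epha4 (chromosome 1, 77367185 to 77515088, minus strand) averaged 110 ± 7.87 CPM in I53A and 181 ± 7.75 CPM in CTL (SD, n = 2 each), 1.64-fold lower (log2 fold change -0.71 ± 0.14 SE, edgeR adjusted p = 0.0127). Its adjusted p was 0.200 without CTL replicate 1 and 0.131 without CTL replicate 2. Within I53A the mean of Epha1 was higher, at 14.3 CPM per kb, against 12 in CTL, and its I53A libraries (15.4 and 13.3 CPM per kb) spanned the level of Epha4. Ephb6, an Eph receptor without kinase activity, had 16 and 19.9 CPM in I53A and 36.0 and 32.1 CPM in CTL. The lower CTL value was still well above the higher I53A value. Ephb6 (chromosome 6, 41605482 to 41620509, plus strand) was 1.88-fold lower (log2 fold change -0.91 ± 0.21 SE, edgeR adjusted p = 0.0251), and its adjusted p was 0.293 without CTL replicate 1 and 0.160 without CTL replicate 2.

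The remaining EphB receptors were close between groups. Ephb4, a receptor for ephrin-B2 and the highest EphB per kilobase (45.6 CPM per kb in I53A and 50.1 in CTL), had 208 and 215 CPM in I53A and 230 and 235 CPM in CTL (adjusted p = 0.678). Ephb3 had 50.7 and 48.7 CPM in I53A and 47.6 and 48.4 CPM in CTL (adjusted p = 0.925). With Ephb2 up and Ephb6 down, the summed EphB level was 344 and 346 CPM in I53A and 329 and 332 CPM in CTL, a ratio of 1.04. The summed EphA level was 227 and 245 CPM in I53A and 298 and 280 CPM in CTL, a ratio of 0.817. Epha4, which fell, was the largest part of this sum. Of the 5 tested EphA receptors, 3 had fitted changes above 0 and 2 below, with a median log2 fold change of 0.08, so the lower sum was not shared across the family. The tested EphA receptors other than Epha4 (Epha1, Epha2, Epha3 and Epha7) had adjusted p-values of 0.508 to 0.94. Ephb1, Epha5, Epha6, Epha8 and Epha10 were too low to test. Epha5 had no read in I53A and 1 and 7 reads in CTL.

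Of the Unc5 receptors, which turn the netrin response to repulsion, Unc5b rose. Unc5b, also known for guiding blood vessel branches, had 72.1 and 60.7 CPM in I53A and 22.2 and 23.7 CPM in CTL. The groups were well separated. Unc5b (chromosome 10, 60762593 to 60831581, minus strand) averaged 66.4 ± 8.03 CPM in I53A and 23.0 ± 1.03 CPM in CTL (SD, n = 2 each), 2.89-fold higher (log2 fold change 1.53 ± 0.18 SE, edgeR adjusted p = 0.000808), and was called with any 1 library left out. It was the highest Unc5 receptor per kilobase (10.6 CPM per kb in I53A and 3.67 in CTL). The summed Unc5 level, 81.4 and 72.5 CPM in I53A and 32.2 and 32.5 CPM in CTL, had the highest ratio of the 10 families, 2.38. The other Unc5 genes were low, with Unc5c at 8.07 and 10.2 CPM in I53A and 9.22 and 8.54 CPM in CTL (adjusted p = 0.955), Unc5a at 1.08 and 1.41 CPM in I53A and 0.773 and 0.199 CPM in CTL (adjusted p = 0.424), and Unc5d with at most 4 reads in a library.

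No Robo receptor passed the edgeR test, 1 of 3 tested had an unadjusted p under 0.05, and DESeq2 and limma-voom called 0. Robo1, the highest per kilobase (18.4 CPM per kb in I53A and 21.2 in CTL), had 335 and 274 CPM in I53A and 332 and 367 CPM in CTL (adjusted p = 0.562). Robo2, named after its values were seen, had 48.3 and 29.3 CPM in I53A and 23.9 and 21.6 CPM in CTL (log2 fold change 0.76 ± 0.25 SE, edgeR adjusted p = 0.114). Its groups did not overlap, and its fitted log2 change ran from 0.37 to 1.08 over the alternatives. Robo4, the endothelial Robo and likewise chosen after its values were seen, had 2.29 and 4.14 CPM in I53A and 0.178 and 4.30 CPM in CTL (adjusted p = 0.76). Its low value, 3 reads, fell in CTL replicate 1, the library with the lowest endothelial marker sum, 14.2 CPM. A link between Robo4 and the endothelial sum was not tested. The fitted log2 change of Robo4 ran from -0.39 to 4.16 over the alternatives.

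**Figure D4:**
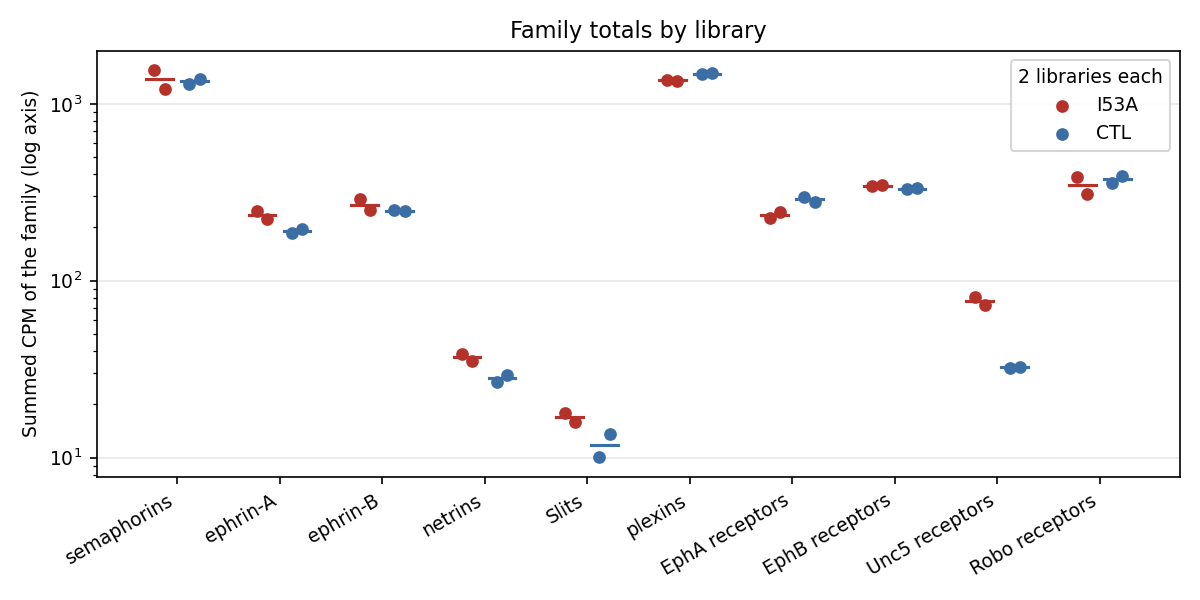
Summed CPM of each of the 10 families on a log axis, with a point for each of the 2 I53A (left of each pair) and 2 CTL libraries and bars at the group means. The Unc5 receptors, at 81.4 and 72.5 CPM in I53A against 32.2 and 32.5 CPM in CTL, stand furthest apart, and the ratio of group means is 1.03 for semaphorins and 0.921 for plexins.

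The co-receptors and the signalling proteins inside the cell were read from the same test, as 2 lists of 75 genes in all, of which 68 were tested. In I53A 5 of the 68 rose and 1 fell, 8.82% beside 6.71% of all tested genes. Over the 65 with at least 10 reads in each CTL library, 4 were higher and 1 lower, 7.69% beside 6.31% of all such genes. The list of 24 co-receptors and other guidance ligands had 19 tested, with 1 higher and 1 lower and a median log2 fold change of 0.10. The list of 51 cytoplasmic signalling genes had 49 tested, with 4 higher and 0 lower and a median of 0.06. Leaving out CTL replicate 1 or CTL replicate 2 left 2 calls each (Dpysl3 and Dpysl5), and leaving out I53A replicate 2 gave 13.

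Nrp2, the neuropilin co-receptor for Sema3f and other secreted semaphorins, had 78.5 and 73.2 CPM in I53A and 37.8 and 51.0 CPM in CTL. The groups did not overlap (log2 fold change 0.77 ± 0.18 SE, edgeR adjusted p = 0.0298). Without CTL replicate 1 or 2 its adjusted p was 0.378 or 0.0838. Rgmb, a membrane ligand of neogenin and a co-receptor for BMPs, had 60.2 and 51.6 CPM in I53A and 89.8 and 88.7 CPM in CTL. It fell (log2 fold change -0.68 ± 0.16 SE, edgeR adjusted p = 0.0269), with adjusted p-values of 0.266 and 0.242 without CTL replicate 1 and 2. Dcc, the attractive netrin receptor, was near absent, at 0 and 3 reads in I53A and 1 and 0 in CTL. Neogenin (Neo1), the related netrin and Rgm receptor, had 319 and 346 CPM in I53A and 357 and 407 CPM in CTL (adjusted p = 0.52), and Flrt3, a ligand of Unc5 receptors, had 326 and 372 CPM in I53A and 293 and 284 CPM in CTL (adjusted p = 0.324). Of the netrin receptors read here (Dcc, Neo1 and the Unc5 genes), Unc5b was the one that passed the test.

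The collapsin response mediator proteins, cytoskeletal proteins of the semaphorin response, held the 2 largest rises among the listed genes with at least 10 reads in each CTL library (Dpysl5 and Dpysl3). Dpysl5 had 175 and 156 CPM in I53A and 14.2 and 12.3 CPM in CTL, 12.5-fold higher (log2 fold change 3.64 ± 0.18 SE, edgeR adjusted p = 1.07e-05). Dpysl3 had 30.5 and 40.0 CPM in I53A and 9.46 and 10.5 CPM in CTL, 3.55-fold higher (edgeR adjusted p = 0.00124). Both genes were called with any 1 library left out, and for each the groups lay far apart. Crmp1 was low, at 30 and 42 reads in I53A and 2 and 2 in CTL, and entered the test only through its I53A reads (log2 fold change 3.83 ± 0.84 SE, edgeR adjusted p = 0.0168). Its adjusted p was 0.0755 in limma-voom, 0.269 without CTL replicate 1 and 0.248 without CTL replicate 2. Of the 5 genes of this family, Dpysl2 did not pass, at 26.7 and 26.7 CPM in I53A and 17.0 and 22.3 CPM in CTL (adjusted p = 0.312), and Dpysl4 was too low to test. Vav2, a guanine nucleotide exchange factor that acts below Eph receptors, had 30.5 and 24.3 CPM in I53A and 13.1 and 11.3 CPM in CTL and rose (log2 fold change 1.16 ± 0.23 SE, edgeR adjusted p = 0.0141). Its adjusted p was 0.123 without CTL replicate 1 and 0.190 without CTL replicate 2. The most abundant genes of the list did not pass. Arhgef12, an exchange factor that binds plexin-B, had 896 and 870 CPM in I53A and 976 and 916 CPM in CTL (adjusted p = 0.787). Rac1, a GTPase that most of these pathways reach, had 1296 and 874 CPM in I53A and 737 and 816 CPM in CTL (adjusted p = 0.188, log2 fold change 0.18 to 0.74 over the alternatives).

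**Figure D5:**
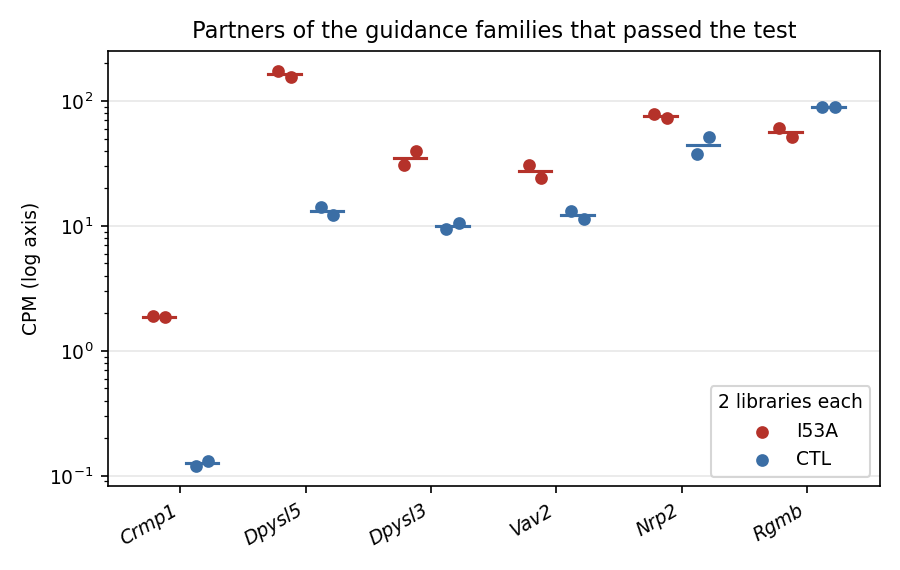
CPM on a log axis in each of the 2 I53A (left of each pair) and 2 CTL libraries for the 6 co-receptor and signalling genes that passed the test, with bars at the group means. Dpysl5 is at 175 and 156 CPM in I53A and 14.2 and 12.3 CPM in CTL, and Rgmb is the gene with I53A below CTL.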

How the data were processed

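The authors deposited whole-number read counts per gene symbol, not normalized, for 4 libraries. Per the labels' protocols, cDNA was amplified from 10 ng of RNA (Ovation RNA-seq System V2) and sequenced as single reads of 100 nucleotides. The build mm10 and the tools HTSeq 0.6.1, TopHat2 2.0.13, DESeq2 1.6.3 and Cufflinks 2.2.1 are listed in the submitters' processing notes, while their role, the annotation and the strand setting are points not given in the sources used here.

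Genes were filtered with filterByExpr (minimum count 10, minimum total 15), scaled with TMM and compared by the quasi-likelihood test of edgeR 4.0.16 (R 4.3.3), two-sided, with Benjamini-Hochberg adjustment over all 14550 tested genes. Log2 fold changes are I53A over CTL. CPM uses the TMM-scaled library size. Lengths and coordinates are exon unions and gene spans of GENCODE M21 (GRCm38, the mm10 build). On simulated data for this comparison (14258 genes, 50 changed at each size), 12%, 58%, 80% and 96% of 1.5-, 2-, 4- and 8-fold changes were recovered, with 10 false calls. Alternatives were DESeq2 1.42.0, limma-voom 3.58.1, other scalings and filters, GC content and length offsets, a replicate block and leaving out each library.

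Replicates differed beyond sampling noise (chi-square per degree of freedom 41.8 in I53A and 13.1 in CTL), so each library counted as 1 sample. The genes described and the lists were chosen with earlier results of these data known. Named were all guidance and partner genes past the threshold, the highest per kilobase in each family, the 2 most abundant genes of each partner list, markers past the threshold and genes nearly without reads in one group, and others are said to be chosen after their values were seen.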

Additional observations from a re-analysis of the deposited data

How the results depend on the processing

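All 10 guidance genes kept their call under DESeq2, limma-voom, both other scalings, both other filters, the offsets, the replicate block and the earlier quasi-likelihood fit, which was chosen after seeing the data (943 genes and 10 guidance genes). Leaving out a library each time gave 297 to 1520 of all genes, 5 to 17 guidance genes (also among those kept by CTL reads), 2 to 13 partner genes and 3 to 20 markers. GC content and length offsets with the replicate block gave 1865 genes, 20 guidance genes (20 of those kept by CTL reads), 10 partner genes and 21 markers. Partner calls were 10 with the offsets and 10 with the block. Marker calls, 11 in the main test, were 19 with DESeq2, 18 with no low-count filter, 17 with the block and 20 with the offsets. The cause of these differences was not tested.

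Whether the replicate numbers pair the samples is not known here. Over genes, the difference between the CTL libraries correlated at 0.0385 with that between the I53A libraries, a single contrast that cannot decide it. The replicate block gave 1274 genes (1042 higher, 232 lower) and 14 guidance genes. Of the values, under the alternatives, of genes named by the stated rule, 530 stayed on the same side, 36 missed the threshold, 5 newly passed it and 3 changed sign, namely the log2 fold change of Efna5 (-0.0365 to 0.437 over libraries left out, below 0 without I53A replicate 1) and of Arhgef12 (0.0448 with the offsets, 0.0457 with the offsets and block). Among genes chosen after their values were seen, Efna2 and Sema4c passed in 5 of 14 alternatives each and Robo2 and Sema6d in 4, and the lowest log2 fold change was -0.39 for Robo4 and -0.03 for Sema5a, both positive in the main test. With 2 libraries a group, many changes are missed at this depth, also at 2-fold and above. On the simulated data 12% of 1.5-fold, 58% of 2-fold and 80% of 4-fold changes were recovered.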
